A study of Bos taurus with 27 samples.

Results

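The colon transcriptome was compared between calves of multiparous cows that were first given colostrum at 12 h of life and calves of multiparous cows that were first given it at 6 h. The comparison asks whether a further delay of the first colostrum meal left a mark on gene expression in the large intestine. It took in 10 of the 27 calves sequenced, 5 in the TRT12_C group (calves 4126, 4145, 4147, 4158 and 4159) and 5 in the TRT6_C group (calves 4134, 4140, 4144, 4151 and 4154), chosen by feeding time and dam parity and not by any measured value. All were male Holstein calves, the colostrum was pooled, heat treated and given by tube, milk replacer followed from 12 h after that meal, and the colon was sampled at 51 h of age. No calf in these groups was fed colostrum at birth. The interval between the first meal and sampling, and the age at the first milk replacer, differed with the treatment. Feeding time, time since feeding and the start of milk replacer therefore cannot be told apart. Values are also given for the same change of feeding time in calves of primiparous heifers (4 TRT12_H and 4 TRT6_H calves), which share no animal with the main comparison, and as levels in 5 TRT0_C calves fed at birth.

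Colostrum carries immunoglobulins, growth factors, hormones and antimicrobial proteins, and the neonatal gut takes up whole proteins for a short time after birth. The colon epithelium is a secretory tissue: its goblet cells make mucins and other disulfide-rich proteins, which enter the endoplasmic reticulum (ER) during translation, receive N-glycans, fold with the help of chaperones and disulfide isomerases, and leave in coated vesicles for the Golgi. When the load on this route is high, cells are known to raise the ER chaperones together, a programme called the unfolded protein response. Whole colon was sequenced, so more cells of a type and more RNA per cell cannot be told apart in any value below.

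The 10 libraries held 1163791 (calf 4154) to 3129171 (calf 4145) gene counts, and levels are given as CPM, the counts per 1000000 gene counts of the calf. These levels are not scaled by the TMM library factors (0.886 to 1.15) that the fold changes use. The order of close values, and with it a lack of overlap, can therefore depend on that scaling. The 10 highest genes took 30.6% to 42.6% of the counts of a calf. At the depths of these libraries 3 counts stood for 0.959 to 2.58 CPM, so values below about that level rest on a few reads. The study reports far more sequenced reads per calf than these counts. The limits of depth given here are therefore those of the deposited counts and not of its sequencing. Epithelial markers (10 of 15 matched, summed level 3181 to 4747 CPM) and smooth muscle markers (12 of 13 matched, 8687 to 17086 CPM) were present in every calf. Of the 24616 gene identifiers, 4046 could be given a symbol, and these lean towards highly expressed genes, which bears on every gene list below. The number of genes at 1 CPM or more was 14735 ± 467 (SD, n = 5) in TRT6_C and 14244 ± 483 (SD, n = 5) in TRT12_C, a difference of -490 that did not pass a two-sided exact permutation test (p = 0.167). Counted at 1 read or more the difference was -261 (p = 0.643 in the same exact test). The lanes were uneven, with calves 4134, 4140 and 4144 (TRT6_C) and 4145, 4158 and 4159 (TRT12_C) in lane 1, 4151, 4126 and 4147 in lane 2, and 4154 alone in lane 3.

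No gene passed the test between TRT12_C and TRT6_C. The threshold, an adjusted p of 0.10 by Benjamini-Hochberg together with a fold change of 1.2, was reached by 0 of 14582 genes (0%), and the lowest adjusted p was 0.743 (edgeR quasi-likelihood test, 5 against 5 calves). DESeq2 also called 0 genes. At an unadjusted p under 0.05 there were 461 genes higher in TRT12_C (3.16%) and 504 lower (3.46%), 965 in all against 881 by DESeq2. The CPM of the 5 TRT12_C calves lay wholly above that of the 5 TRT6_C calves for 54 genes (0.37%) and wholly below it for 60 genes (0.411%). Random assignment of 5 against 5 calves separates a gene fully, in either direction, at a two-sided exact permutation p of 0.00794. The 114 genes without overlap, of 14582, are about that share. A lack of overlap in a single gene below is therefore a description and not evidence of a difference. In simulated counts with the means and totals of these calves, the edgeR quasi-likelihood test found 18% of genes with a 1.5-fold change and 46% of those with a 2-fold change. Changes of the size described below, mostly under 2-fold, were thus missed more often than found in that setting. It changed only genes at a mean of 5 CPM or more, and its 4- and 8-fold changes make the adjusted threshold easier to reach. These shares therefore do not give the power in the real comparison or for genes at a few reads. The genes below are therefore given as levels and differences, none of which passed the test over all genes.

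The direction of the difference went with the expression level. In the highest quintile of the genes by mean CPM (50.8 CPM and above), 7.92% were higher in TRT12_C at an unadjusted p under 0.05 and 2.54% were lower. In the lowest quintile (up to 4.88 CPM) the order was the other way, with 0.754% higher and 3.19% lower. The median log2 fold change moved from -0.17 in the lowest quintile to 0.07 in the highest, over a median of -0.02 for all genes tested. Genes with a symbol, 2087 of 3838 of which lay in the highest quintile, were higher in 6.96% and lower in 2.01% of cases, and it is against these shares, not against 3.16% and 3.46%, that the lists below are read. The share of all genes with a positive log2 fold change in cow-born calves is not given here. Counts of positive genes below therefore only describe the lists, beside a median of 0.07 in the highest quintile.

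**Figure D1:**
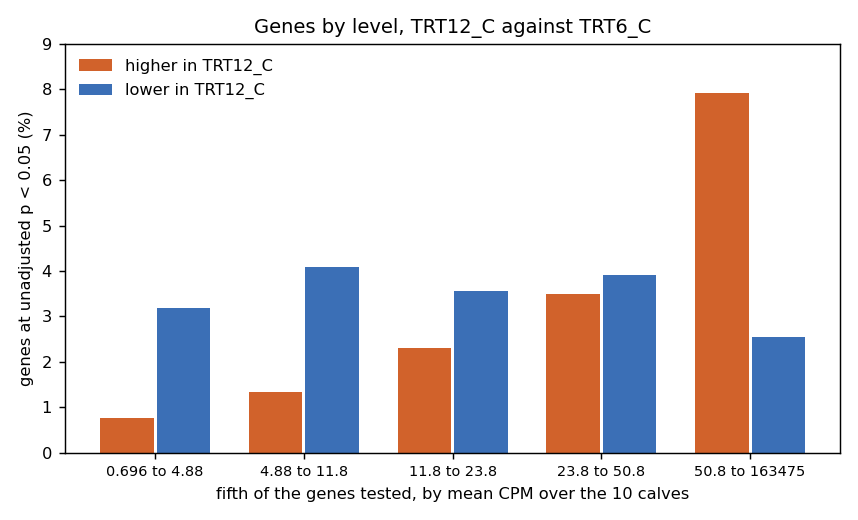
Percentage of genes at an unadjusted p under 0.05 in TRT12_C against TRT6_C (vertical axis), in quintiles of the 14582 genes tested ordered by mean CPM over the 10 calves (horizontal axis); orange bars are genes higher in TRT12_C and blue bars genes lower. The share of higher genes goes from 0.754% in the lowest quintile to 7.92% in the highest, and the share of lower genes stays between 2.54% and 4.08%.

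Genes of protein folding in the ER stood out among those higher in TRT12_C. On the list of heat shock and unfolded protein response genes, 22 of 36 could be tested, 12 were higher at an unadjusted p under 0.05 and 0 were lower, and 21 of the 22 had a positive log2 fold change. The median log2 fold change of the list was 0.38, against 0.07 over all genes with a symbol. The 12 genes were HSP90B1, MANF, PDIA4, DNAJB11, PDIA3, CALR, DNAJC3, PDIA6 and CANX, which work inside the ER, and HSP90AA1, HSP90AB1 and HSPE1, chaperones of the cytosol and mitochondria. HERPUD1, which the same response raises in many cells, differed by 0.08 on the log2 scale (unadjusted p = 0.60), and TRIB3, a target of the stress factor ATF4, stood at 3.16 CPM in TRT6_C and 1.95 CPM in TRT12_C (log2 fold change -0.44, SE 0.58), with calf 4154 at 7.73 CPM and a log2 fold change of 0.08 without that calf. The count of 12 ran from 9 to 16 when each calf was left out in turn and from 11 to 14 under the other settings.

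HYOU1 (ENSBTAG00000010322), an ER chaperone that serves the central chaperone HSPA5, had the lowest p of all genes with a symbol. Its CPM was 65.3, 116, 131, 92.3 and 84.2 in TRT6_C calves 4134, 4140, 4144, 4151 and 4154, and 202, 103, 181, 199 and 136 in TRT12_C calves 4126, 4145, 4147, 4158 and 4159, the order kept for single calves throughout. The groups overlapped through calf 4145, and 4 of the 5 TRT12_C calves lay above every TRT6_C calf. The means were 97.8 ± 26.0 and 164 ± 43.0 CPM (SD, n = 5), a fold change of 1.69 (log2 fold change 0.76, SE 0.19, unadjusted p = 0.00048, adjusted p = 0.743).

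HSP90B1 (ENSBTAG00000003362), the HSP90 of the ER, again had calf 4145 as the lowest of the TRT12_C group. It was at 389, 687, 638, 433 and 522 CPM in TRT6_C and at 1126, 605, 989.7, 873 and 944 CPM in TRT12_C (log2 fold change 0.78, SE 0.24, unadjusted p = 0.0029). The lectin chaperone CALR was at 585 ± 157 CPM in TRT6_C and 859 ± 195 CPM in TRT12_C, and its membrane-bound partner CANX at 632 ± 97.2 and 836 ± 93.2 CPM. In both genes calf 4145 was again the lowest of the TRT12_C group, within the range of the TRT6_C calves. The disulfide isomerases PDIA3 and PDIA4 had fold changes of 1.55 and 1.60, and the secreted ER protein MANF one of 1.69, from 30.5 ± 8.94 to 50.7 ± 6.00 CPM.

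ERP44, which holds unassembled proteins back in the early secretory route, was the ER folding gene without overlap in CPM. It stood at 59.3, 59.5, 58.7, 53.5 and 62.7 CPM in TRT6_C and at 78.8, 78.0, 84.5, 66.1 and 95.3 CPM in TRT12_C (log2 fold change 0.49, SE 0.15, unadjusted p = 0.0020, adjusted p = 0.743). In CPM every TRT12_C calf lay above every TRT6_C calf. The TMM factors, 0.886 for calf 4140 and 1.13 for calf 4158, would make the groups overlap.

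**Figure D2:**
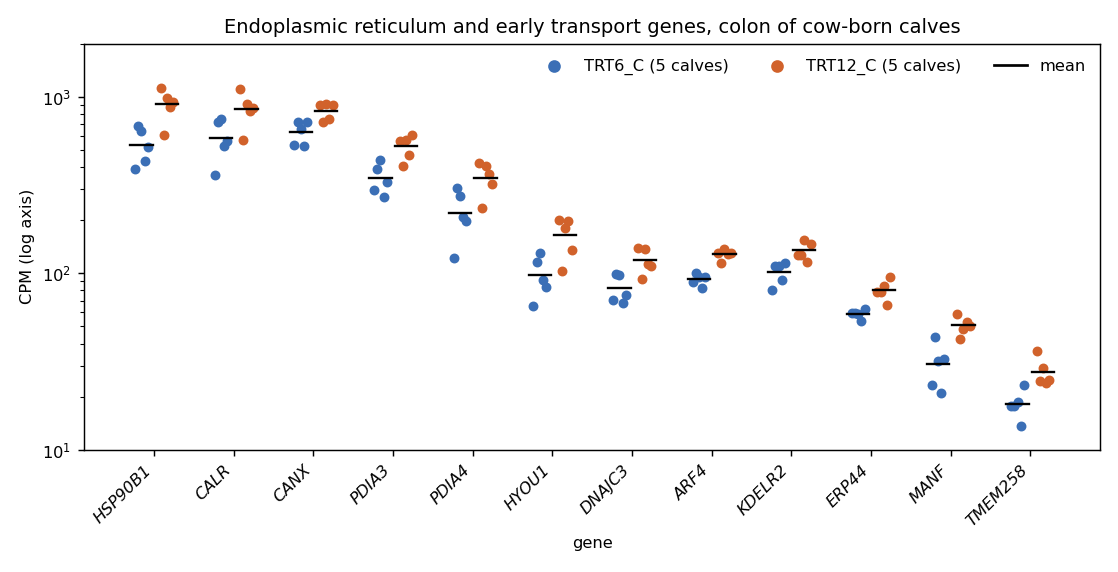
CPM (vertical log axis) of 12 genes of the ER and early transport (horizontal axis) in the colon of 5 TRT6_C calves (blue) and 5 TRT12_C calves (orange); each point is 1 calf and the black line is the group mean. The TRT12_C mean lies above the TRT6_C mean in each gene, by 1.35-fold (CANX) to 1.72-fold (HSP90B1), and the calves of the groups overlap in all but ARF4, ERP44, KDELR2 and TMEM258. Levels are not scaled by gene length and are not to be compared between genes.

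Since these genes led the comparison, the rest of the secretory route was followed stage by stage. These stage lists were put together after the values had been seen, so they carry no test and only describe where the differences lay. Of 89 genes tested, 58 were higher in TRT12_C at an unadjusted p under 0.05 and 0 were lower, and 87 had a positive log2 fold change, with a median of 0.34. As 70 of the 89 genes lay in the highest quintile by CPM, the share to read this against is 7.92%.

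At the entry into the ER, 10 of 14 genes were higher at an unadjusted p under 0.05. They were SRP9, a subunit of the signal recognition particle, SRPRA and SRPRB, its receptor, SEC61A1, the channel itself, SEC63 and TRAM1, which assist the channel, SSR1, SSR2 and SSR3, which attach to it, and SPCS2 of the signal peptidase. SRP9 was at 7.71, 7.17, 8.48, 7.53 and 5.16 CPM in TRT6_C and at 16.0, 12.1, 7.09, 13.6 and 15.4 CPM in TRT12_C (log2 fold change 0.85, SE 0.23), on 6 to 38 reads a calf. Calf 4147 alone kept the groups from separating. SEC61A1 had a fold change of 1.46, from 113 ± 35.7 to 163 ± 38.7 CPM. The count of 10 went from 3 without calf 4147, 5 without calf 4134, 4144 or 4151 and 6 without calf 4145 or 4159, to 12 without calf 4140, and was 3 with lane as a covariate in a fit of the compared groups only.

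In N-glycan transfer, 8 of 13 genes were higher at an unadjusted p under 0.05, among them 6 subunits of the oligosaccharyltransferase, namely RPN1, RPN2, DDOST, STT3A, STT3B and TMEM258. TMEM258 did not overlap in CPM, at 17.8, 17.6, 18.6, 13.6 and 23.2 CPM in TRT6_C against 36.0, 24.6, 29.0, 23.9 and 24.9 CPM in TRT12_C (log2 fold change 0.66, SE 0.21), although 23.2 and 23.9 CPM are less than 1 CPM apart. The TMM factors, 0.996 for calf 4154 and 1.13 for calf 4158, would put these values in the other order. The other pair were UGGT1, which returns misfolded glycoproteins for another round, and PRKCSH, a glucosidase subunit. The count of 8 was 2 without calf 4147, 4 without calf 4134 or 4151, 5 without calf 4144 or 4126, and 11 without calf 4140 or 4158.

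In ER folding as a whole, 19 of 22 genes were higher at an unadjusted p under 0.05, the highest share of the 5 stages, with a median log2 fold change of 0.49. Beside those named above they included P4HB, PDIA5, ERP29, ERO1A, the oxidase that recharges the isomerases, PPIB and PPIC, prolyl isomerases, and SERPINH1, the collagen chaperone. The genes of this stage that did not reach that p were PRDX4, FKBP2 and TXNDC11, at log2 fold changes of 0.26, 0.33 and 0.09. Leaving out each calf in turn gave 14 to 20 of 22.

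In degradation from the ER, 4 of 10 genes were higher at an unadjusted p under 0.05: SELENOS, SEL1L, VCP and EDEM3, a count that was 2 without calf 4134 and 1 with lane as a covariate in a fit of the compared groups only. SELENOS was at 32.9 ± 5.29 CPM in TRT6_C and 46.6 ± 8.0 CPM in TRT12_C (log2 fold change 0.52, SE 0.15), and the median of the stage was 0.14, the lowest of the 5. In transport between the ER and the Golgi, 17 of 30 genes were higher, among them members of the COPII coat (SEC23A, SEC24A, SEC24D), the COPI coat (COPB2, COPE, COPZ1), the cargo receptors of the TMED family (TMED2, TMED4, TMED7, TMED10), the small GTPases ARF4 and RAB1A and the retrieval receptor KDELR2. This count was 5 without calf 4151, 6 without calf 4147, 7 without calf 4134, 10 without calf 4144 or 4159, 11 without calf 4126 and 22 without calf 4140, and ran from 8 to 19 under the other settings.

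ARF4 and KDELR2 separated the groups in CPM. ARF4 was at 89.6, 100.3, 95.3, 82.1 and 95.4 CPM in TRT6_C and at 129.95, 115, 138, 129 and 130.5 CPM in TRT12_C (log2 fold change 0.50, SE 0.13, unadjusted p = 0.00063). KDELR2, which brings escaped chaperones back to the ER, was at 101 ± 14.5 and 135 ± 16.0 CPM (log2 fold change 0.45, SE 0.17), with the highest TRT6_C calf at 114 CPM and the lowest TRT12_C calf at 116 CPM. Further down the route, B4GALT1, a galactosyltransferase of the Golgi, was at 115 ± 16.1 and 179 ± 46.7 CPM (log2 fold change 0.67, SE 0.18).

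The summed level of the secretory route genes was 8605, 11960, 11994, 10014 and 10564 CPM in TRT6_C and 15278, 11177, 14760, 13781 and 13337 CPM in TRT12_C. Calf 4134 was the lowest of all 10 and calf 4145 the lowest of the TRT12_C group, below TRT6_C calves 4140 and 4144, so the groups overlapped. The TMM factors, 0.906 for calf 4145 and 1.13 for calf 4158, would make 4158 the lowest TRT12_C calf instead. The number of route genes at an unadjusted p under 0.05 depended on the calves, from 30 without calf 4147 and 32 without calf 4134 to 69 without calf 4140, while the median log2 fold change stayed between 0.30 and 0.46. It was 32 with sequencing lane as a covariate in a fit of the compared groups only. Within lane 1 alone, all 12 ER and transport genes in the plot by calf had a higher mean in the 3 TRT12_C calves, such as 571 against 807 CPM for HSP90B1. These genes were picked with the values of the same calves known, so their direction within lane 1 is not a separate check on lane.

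Cell type markers were set beside these values. The summed level of 6 goblet cell markers (of 12, the others not analysed here) was 913 to 1771 CPM in TRT6_C and 1666 to 2243 CPM in TRT12_C, with a median log2 fold change of 0.46 and 5 of 6 positive. AGR2, a disulfide isomerase of the ER in goblet cells, had the lowest p of them, at 248, 476, 485, 319 and 248 CPM in TRT6_C and 911, 424, 671, 654 and 823 CPM in TRT12_C (log2 fold change 0.996, SE 0.33, unadjusted p = 0.0049). The 10 epithelial markers were all positive but smaller in size (median 0.18). All 10 lay in the highest quintile, where the median of all genes was 0.07. They summed to 3181 to 4747 CPM in TRT6_C and 3785 to 4610 CPM in TRT12_C, with CDH1 (334 ± 36.0 and 402 ± 35.3 CPM) the only one at an unadjusted p under 0.05. The part of the goblet cell share in the secretory route differences was not tested.

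The 9 fibroblast markers, mostly genes of matrix proteins that pass through the same route, were all positive as well (median 0.36), and LUM and DCN were at an unadjusted p under 0.05. All 9 lay in the highest quintile too. LUM was at 164 ± 37.6 CPM in TRT6_C and 212 ± 23.5 CPM in TRT12_C. Their summed level overlapped widely, at 9455 to 20304 and 10472 to 20925 CPM, and calves 4151 and 4158 were the highest in their groups. The 12 smooth muscle markers had a median of -0.08, with SYNPO2 lower (log2 fold change -0.47, SE 0.19) and ACTA2 at 0.07, and the 3 endothelial and 4 neuronal markers had none at that p. None of the markers of B cells, plasma cells or red blood cells could be matched, so plasma cells, which secrete immunoglobulin through the same route, were not analysed here.

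Outside the ER, the named genes with the lowest p on the higher side belonged to no single list. TCEAL8 (ENSBTAG00000027843) separated the groups most widely for its spread, at 16.6, 18.2, 19.0, 18.8 and 16.3 CPM in TRT6_C and 33.4, 30.04, 24.5, 29.4 and 30.8 CPM in TRT12_C (log2 fold change 0.77, SE 0.20, unadjusted p = 0.00048). TSPAN13, a tetraspanin, was at 80.1 ± 10.3 and 112 ± 10.7 CPM, and TMEM97, a membrane protein of cholesterol handling, at 30.2 ± 6.63 and 48.2 ± 5.10 CPM. Neither overlapped. TGM2, which crosslinks proteins, was at 58.3 ± 6.85 and 81.0 ± 14.8 CPM, with calf 4147 at 56.1 CPM inside the TRT6_C range. SLC12A2, the cotransporter that loads epithelial cells with chloride for secretion, was at 126 ± 30.8 and 185 ± 38.9 CPM (log2 fold change 0.58, SE 0.16).

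On the lower side of the named genes stood CLK1 and CIRBP, which act on RNA. CLK1, a kinase of splicing factors, was at 113, 57.9, 90.2, 77.2 and 93.7 CPM in TRT6_C and 47.2, 54.0, 28.4, 66.5 and 42.5 CPM in TRT12_C (log2 fold change -0.81, SE 0.25). CIRBP, the cold-inducible RNA-binding protein, was at 74.6 ± 23.5 and 47.4 ± 12.6 CPM, and calf 4140 had the lowest value of its group in both genes. Of 24 RNA-binding and splicing regulators, a list put together after the values had been seen, 6 were lower at an unadjusted p under 0.05 (CLK1, CIRBP, PABPN1, RBM5, RBM4 and NKTR), 0 were higher and 19 were negative. Of these genes 21 lay in the highest quintile by CPM, where 2.54% of all genes were lower, and the count of 6 was 3 without calf 4134 or 4147 and 10 without calf 4140. Of 35 zinc finger genes named ZNF, also listed afterwards, 4 were lower (ZNF182, ZNF283, ZNF383 and ZNF576) and 26 negative, with a median of -0.18. These were mostly low genes, with 14 in the lowest quintile and 11 in the next, where all genes tested had medians of -0.17 and -0.07 and were lower in 3.19% and 4.08% of cases, so nothing particular to the ZNF genes is read from their lean, and their count ran from 3 without calf 4134 or 4154 to 7 without calf 4140.

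Also among the lower genes were ASXL1 and TADA3, parts of chromatin complexes, SUFU, which restrains hedgehog signalling, MSRB2, a mitochondrial repair enzyme, and VWA2, LYSMD1 and CXHXorf57. VWA2, a matrix protein, and LYSMD1 did not overlap between the groups in CPM but were low, on 1 to 23 and 2 to 23 reads a calf. LYSMD1 would overlap with the TMM factors of calves 4144 (1.15) and 4145 (0.906). VWA2 was at 4.75, 4.41, 5.76, 8.66 and 6.01 CPM in TRT6_C and 2.67, 2.56, 0.645, 2.20 and 2.20 CPM in TRT12_C. CXHXorf57 had no read in calves 4145, 4158 and 4159 and 5 to 42 reads in the TRT6_C calves, and calf 4147, at 3.22 CPM, overlapped with them. ASXL1 was at 128 ± 22.6 and 92.4 ± 18.8 CPM (log2 fold change -0.44, SE 0.12, unadjusted p = 0.00096), with TRT6_C calf 4140, at 88.2 CPM, inside the TRT12_C range.

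RGS2 and CCL14 were tested on their own because the study names them, from comparisons that share calves with this one, so their values here are not independent of that choice. RGS2 (ENSBTAG00000034366), which shortens signals from G protein coupled receptors, was at 2.37, 6.06, 2.37, 4.14 and 3.44 CPM in TRT6_C and at 0, 0.959, 0, 2.20 and 1.47 CPM in TRT12_C. These values rest on 0 to 11 reads a calf, the groups came within 1 CPM of each other without overlap, and the difference was -2.75 CPM. In two-sided exact permutation tests both genes gave p = 0.00794, the smallest that 5 against 5 calves allow, and 0.00794 after adjustment over the pair. The study had found RGS2 lower in these TRT12_C calves than in TRT0_C, and CCL14 higher in these TRT6_C calves than in TRT6_H. That choice leans both genes towards the difference tested, so these p are too low and no conclusion is drawn from them. In the fit over all genes RGS2 had a log2 fold change of -1.82 (SE 0.62) and an adjusted p of 0.743. TRT0_C calves stood at 7.29 ± 2.30 CPM (SD, n = 5), TRT6_H calves at 6.59 ± 2.98 and TRT12_H calves at 5.09 ± 3.19 CPM (SD, n = 4).

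CCL14 (ENSBTAG00000010738), a chemokine of monocytes, was at 9.49, 10.5, 10.8, 17.0 and 8.59 CPM in TRT6_C and at 5.79, 3.83, 5.16, 4.77 and 7.33 CPM in TRT12_C, on 8 to 45 reads a calf. The groups did not overlap, and calf 4151 was the highest by some way. The difference was -5.90 CPM, and the log2 fold change was -1.09 (SE 0.34, unadjusted p = 0.0033, adjusted p = 0.743). In heifer-born calves the order was the opposite, with 2.46 ± 1.26 CPM in TRT6_H and 6.48 ± 3.06 CPM in TRT12_H (SD, n = 4; log2 fold change 1.29, SE 0.46). The difference between the parities had an unadjusted p of 0.000245 in the edgeR quasi-likelihood test, and its adjusted p over all genes was 0.993. It contains the comparison of TRT6_C with TRT6_H, from which the study named CCL14. Its size and p thus follow in part from that choice and are not separate evidence.

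Other immune genes gave few differences, and many could not be matched to an identifier. Of 8 genes that the study took to stand for mucosal immunity, 1 was tested, STAT3, a transcription factor of cytokine signals, which was at 228 ± 27.1 and 282 ± 31.0 CPM (log2 fold change 0.34, SE 0.15, unadjusted p = 0.033). Of 9 cytokines and chemokines, CCL16 was higher, at 0.551 to 2.64 CPM in TRT6_C and 2.20 to 6.61 CPM in TRT12_C, on 1 to 18 reads a calf, and CCL14 was lower. None of 8 cytokine receptors, 3 pattern recognition genes, 4 interferon-induced genes or 2 immunoglobulin transport genes was at an unadjusted p under 0.05. FCGRT, the neonatal immunoglobulin G receptor, was at 158 and 172 CPM (log2 fold change 0.16, SE 0.14), and PIGR, which carries IgA across the epithelium, at 1383 and 1324 CPM (log2 fold change -0.04, SE 0.27, and -0.21 to 0.20 as calves were left out). CD8A, the only T cell marker matched, was at 4.404 ± 2.14 and 1.67 ± 1.22 CPM, on 1 to 21 reads a calf.

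Antimicrobial proteins had the highest median of the lists with 5 or more genes, 0.65 over 10 genes, with 4 higher at an unadjusted p under 0.05. Their spread between calves was wide. M-SAA3.2, a serum amyloid A of mucosa and mammary gland, was at 0.593, 1.65, 3.05, 1.13 and 0 CPM in TRT6_C and 0.445, 20.5, 0.645, 1.10 and 58.6 CPM in TRT12_C, so its log2 fold change of 3.44 (SE 1.13) rested on calves 4145 and 4159. The enteric defensin EBD was at 469.7 ± 164 and 768 ± 277 CPM, the neutrophil calgranulin S100A12 at 39.6 ± 17.2 and 72.4 ± 13.1 CPM, and the secreted phospholipase PLA2G2A at 804 ± 507 and 1251 ± 284 CPM. All of them overlapped between the groups. The count of 4 was 1 without calf 4159, 2 without calf 4134, 4145, 4151 or 4154, and 5 without calf 4140. It did not change when any other calf was left out.

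Of the metabolic lists, glycolysis was above the share of genes in the highest quintile that were higher (7.92%), and lipid synthesis was near it. All 19 glycolysis and hypoxia genes were positive (median 0.23) and 5 were higher at an unadjusted p under 0.05 (26.3%), namely HK1, HK2, PFKP, ALDOA and TPI1, but that count went from 1 to 12 as calves were left out. HK1, the first enzyme of the pathway, was at 120.1 ± 9.22 and 152 ± 27.2 CPM. Of 22 genes of cholesterol and fatty acid synthesis, 20 were positive and 2 were higher at that p (9.09%), SCD and EBP, which did not overlap. SCD, the desaturase that makes monounsaturated fatty acids, was at 67.6, 94.3, 92.2, 75.0 and 71.3 CPM in TRT6_C and 160.2, 101, 126, 142 and 141 CPM in TRT12_C (log2 fold change 0.76, SE 0.27, unadjusted p = 0.0077). EBP, a sterol isomerase, was at 11.8 ± 4.03 and 18.6 ± 2.41 CPM, with 16.0 and 16.1 CPM as the nearest values of the groups. The TMM factors, 0.886 for calf 4140 and 0.928 for calf 4159, would put these values in the other order. PPARGC1A, a coactivator of mitochondrial genes, was lower without overlap in CPM, at 97.9 ± 8.58 and 77.4 ± 6.598 CPM (log2 fold change -0.31, SE 0.13). It would overlap with the TMM factors of calves 4144 (1.15) and 4145 (0.906).

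Of 17 genes of the cell cycle and of crypt stem cells, 12 were positive, and OLFM4, PCNA and TK1 were higher at an unadjusted p under 0.05. OLFM4, a marker of crypt base cells, was at 1444 ± 524 and 2078 ± 346 CPM and overlapped between the groups. Of 10 aminoacyl-tRNA synthetases, listed after the values had been seen, 4 were higher (TARS, HARS, NARS and AARS), and NARS, at 66.5 to 83.1 and 85.5 to 93.5 CPM, did not overlap in CPM. Leaving out each calf in turn gave 3 to 5 of 10. The antioxidant genes PRDX1 and PRDX6 were higher among 16 genes of iron and oxidative stress, and PRDX1 was at 120.3 ± 29.97 and 175 ± 29.7 CPM. The shares of higher genes were 17.6% for the cell cycle, 40% for the synthetases and 12.5% for iron and oxidative stress. In the highest quintile, which held 9, 9 and 14 genes of these lists, 7.92% of all genes were higher. Nothing particular is read from the count of the iron list.

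The barrier and transport lists were near the shares of all genes with a symbol. None of 15 tight junction genes was at an unadjusted p under 0.05, and 8 were positive and 7 negative. None of 12 genes of bile acid, nutrient and short-chain fatty acid transport was at that p. Of 20 genes of ion and water transport, 2 were higher, SLC12A2 and the carbonic anhydrase CA2, whose mean of 115 ± 79.1 CPM in TRT12_C against 68.2 ± 17.7 CPM in TRT6_C rested on calf 4158 at 251 CPM. Among 9 growth factor and receptor genes IGFBP7 alone was higher, among 8 glucocorticoid-responsive genes GLUL and MAOA were, while PER1 was at 74.3 and 61.7 CPM (log2 fold change -0.24, SE 0.21) with TRT6_C calf 4151 at 120.2 CPM, and among 9 immediate early genes RGS2 alone was lower. Of 7 antigen presentation genes TAPBP, which loads class I molecules in the ER, was higher (191 and 233 CPM), of 13 fatty acid oxidation genes ACADVL was higher and PPARGC1A lower, and of 15 genes of smooth muscle signalling EDNRB was higher and ITPR1 and RGS2 were lower.

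**Figure D3:**
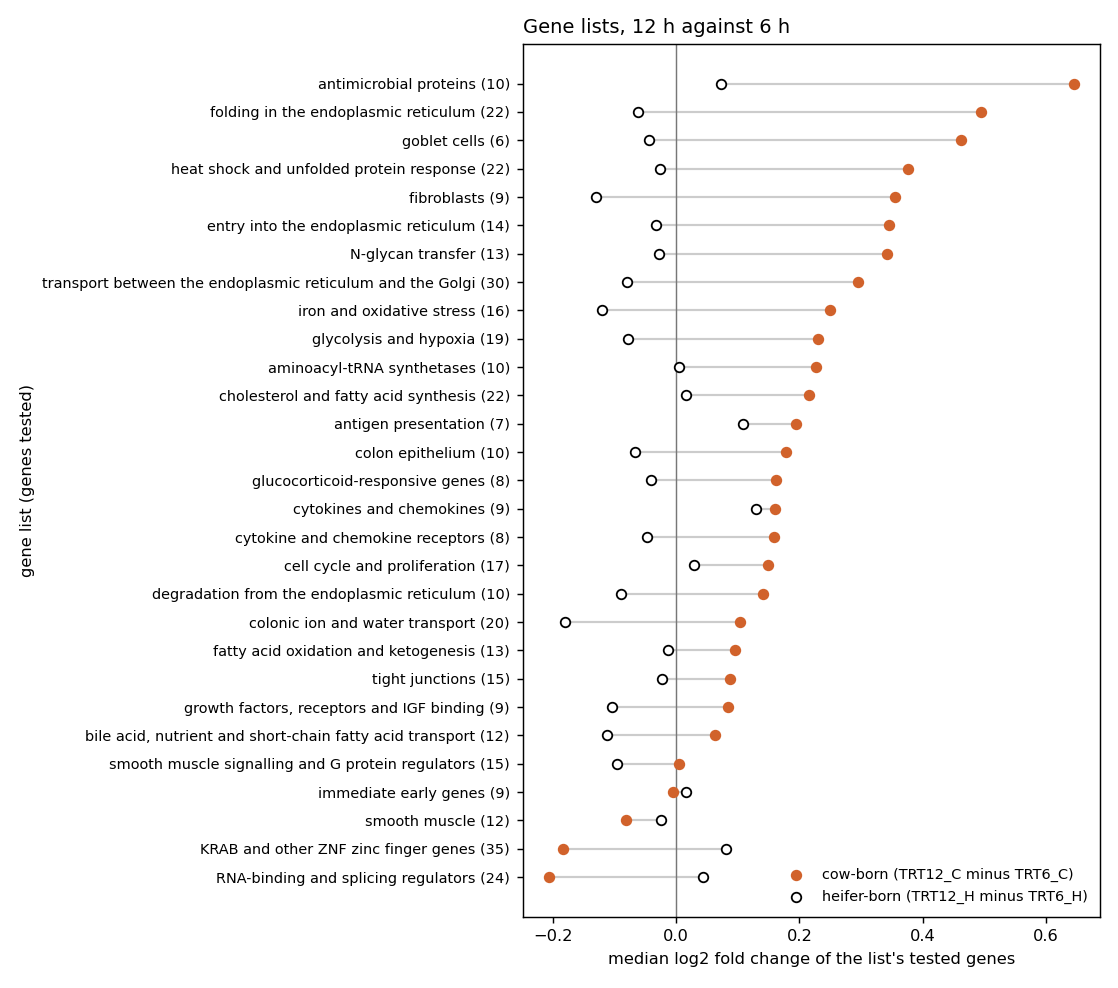
Median log2 fold change at 12 h against 6 h (horizontal axis) of the tested genes in the lists shown, each with at least 5 genes (vertical axis, number of genes in brackets), in cow-born calves (filled orange) and heifer-born calves (open). The secretory stage, synthetase, ZNF and RNA-binding lists were made after the values had been seen. In cow-born calves the medians run from -0.21 (RNA-binding) to 0.65 (antimicrobial proteins), and ER folding is at 0.49 in cow-born and -0.06 in heifer-born calves.

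The same change of feeding time was measured in calves of primiparous heifers. Their feeding-time difference was not used to choose genes by p. RGS2 and CCL14 are an exception, as the study named them from comparisons that held heifer-born calves. Between TRT12_H and TRT6_H, 0 genes were called (edgeR quasi-likelihood test, lowest adjusted p 0.99988), and at an unadjusted p under 0.05 there were 161 higher (1.1%) and 111 lower genes (0.761%). Most secretory route genes were slightly lower in TRT12_H: 23 of 89 were positive, and the median log2 fold change was -0.06. Over all genes tested 51.2% were positive, and the median of the highest quintile was -0.02 in heifer-born calves. At an unadjusted p under 0.05, 1 route gene was higher (PDIA5) and 1 lower (PPIC). HYOU1 was at 120.1 ± 36.6 CPM in TRT6_H and 132 ± 36.1 CPM in TRT12_H, and HSP90B1 at 724 ± 293 and 753 ± 249 CPM (SD, n = 4). The heifer-born calves of both treatments thus stood between the TRT6_C and TRT12_C means in these genes, with a wider spread in HSP90B1.

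Of the 24 named genes with the lowest p, 4 of the 12 higher and 2 of the 12 lower genes had the same sign in heifer-born calves. Among all genes at an unadjusted p under 0.05 these were 188 of 461 higher (40.8%) and 217 of 504 lower genes (43.1%). Among those with a symbol they were 106 of 267 and 24 of 77, so nothing particular to the named genes is read from their counts. SRP9 came closest to its value in cow-born calves, with 9.83 ± 0.738 CPM in TRT6_H and 14.8 ± 2.93 CPM in TRT12_H (log2 fold change 0.51, SE 0.25, unadjusted p = 0.053). CCL14 was the one at an unadjusted p under 0.05, in the opposite direction. The study had named CCL14 from TRT6_C against TRT6_H, so its TRT6_H level was part of that choice. M-SAA3.2, which is not among the 24, was also higher in TRT12_H (1.82 ± 1.49 and 14.5 ± 10.1 CPM, log2 fold change 2.62, SE 1.26, unadjusted p = 0.046).

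The difference between the parities was itself tested, as the interaction of feeding time and parity. No gene was called (lowest adjusted p 0.993, edgeR quasi-likelihood test), and at an unadjusted p under 0.05 the difference was higher in cow-born calves for 258 genes (1.77%) and lower for 370 (2.54%). Of the 89 secretory route genes 23 were on the higher side and 0 on the lower, 10 of them among the 22 ER folding genes and 9 among the 30 transport genes. Of the 24 named genes 20 were at that p. The cow-born calves that chose these genes are also part of the interaction, so these counts are a description and not a second line of evidence.

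**Figure D4:**
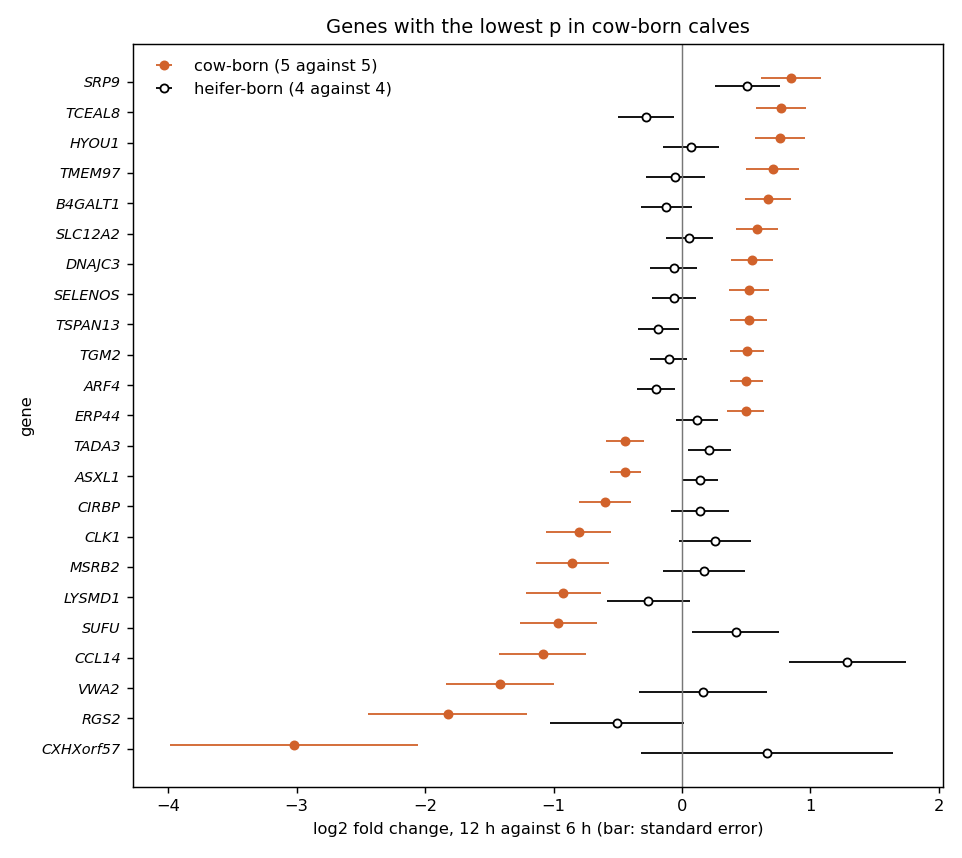
Log2 fold change at 12 h against 6 h (horizontal axis, bars are standard errors) of 23 of the 24 named genes with the lowest p in cow-born calves (vertical axis), in cow-born calves (filled orange, 5 against 5) and heifer-born calves (open, 4 against 4). The cow-born values are the ones that chose the genes, the heifer-born values lie mostly around 0, and CCL14 is at -1.09 in cow-born and 1.29 in heifer-born calves.

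Levels in calves fed at birth were set beside these groups without a test. HYOU1 was at 113 ± 16.0 CPM in TRT0_C, HSP90B1 at 614 ± 163, CALR at 591 ± 72.4 and PDIA4 at 230.1 ± 38.1 CPM (SD, n = 5), each nearer to TRT6_C than to TRT12_C. ARF4, at 99.6 ± 7.79 CPM, and SCD, at 91.6 ± 27.5 CPM, were placed alike. Among the lower genes CLK1 was at 84.5 ± 18.2 and SUFU at 8.84 ± 2.66 CPM in TRT0_C, again beside the TRT6_C means of 86.3 and 9.25 CPM. Other genes were placed otherwise: TSPAN13, at 102 ± 11.7 CPM, was nearer to TRT12_C, S100A12, at 26.5 ± 9.90 CPM, was below both groups, and EBD, at 825 ± 299 CPM, was above both.

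The number of genes at an unadjusted p under 0.05 depended on single calves. It was 965 with all 10 calves, 616 without calf 4134 and 632 without calf 4147, and 1529 without calf 4140 and 1574 without calf 4158, when the lowest adjusted p came to 0.103. No gene was called in any of these fits.

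**Figure D5:**
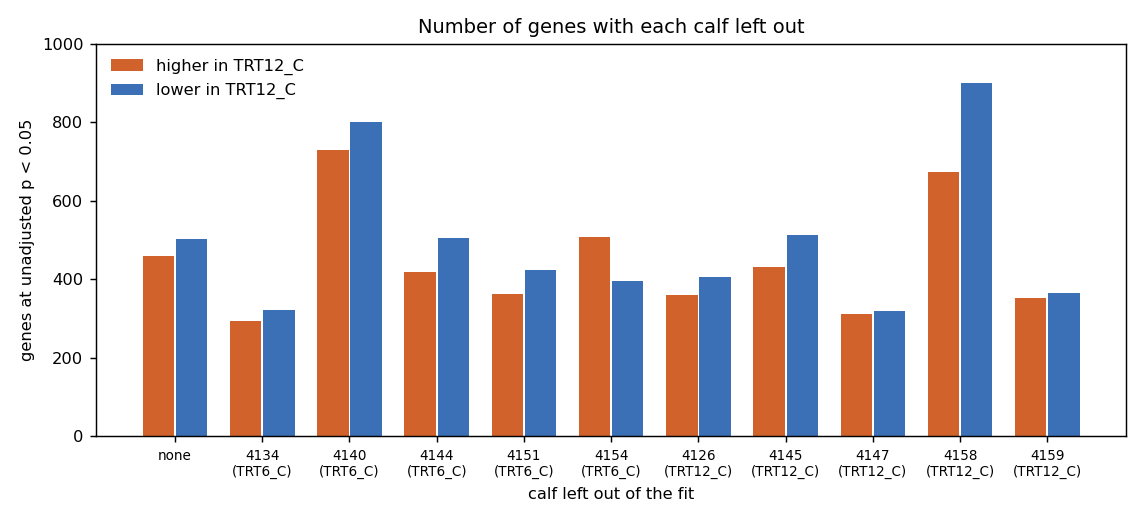
Number of genes at an unadjusted p under 0.05 (vertical axis) in TRT12_C against TRT6_C with all 10 calves ("none") and with each calf left out (horizontal axis), higher genes in orange and lower genes in blue. The counts go from 293 higher and 323 lower without calf 4134 to 674 higher and 900 lower without calf 4158.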

How the data were processed

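The authors deposited 1 table of raw gene counts for 27 calves, whole numbers of reads per Ensembl gene. To make it they aligned reads to UMD3.1 with TopHat 2.1.1 and SAMtools 1.4 and counted with HTSeq, leaving out reads on more than 1 gene. The strand setting is not given in the sources used here, so overlapping and antisense genes, and near-identical copies such as the serum amyloid and defensin genes, are uncertain. Dam parity, lane and symbols came from the study's supplementary tables and run names.

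Genes at 1 CPM or more in at least 5 of the 10 calves (14582) were tested with edgeR 4.0.16 in R 4.3.3: TMM factors (0.886 to 1.15), quasi-likelihood test, 6 group means over 27 calves (common biological coefficient of variation 0.227), contrasts TRT12_C minus TRT6_C, TRT12_H minus TRT6_H and their interaction. Calls needed an adjusted p of 0.10 and a fold of 1.2. Single values had exact permutation tests. In simulated counts 200 genes at a mean of 5 CPM or more were changed, and 149 genes were called, 18 of them falsely. Of 1.5-, 2-, 4- and 8-fold changes 18%, 46%, 100% and 98% were found. In the same simulated counts, 0 genes were called between TRT12_H and TRT6_H, where no gene was changed. No simulation without any change was run.

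Named are the 12 higher and 12 lower genes with a symbol and the lowest p, the genes the study chose for mucosal immunity together with RGS2 and CCL14, which it called in other comparisons, the lowest-p member of each list in each direction, and list genes without overlap. Other list members named were chosen after their values were seen. Members and lists were chosen with earlier results of these data known. All pairs of libraries differed by more than sampling noise (chi-square per degree of freedom 4.30 or more). DESeq2 1.42.0 and the other alternatives are given in the closing section. 1 of the 24 genes, 2 other genes and 1 list are not reported here.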

Additional observations from a re-analysis of the deposited data

Results flagged for a closer look

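In 314 groups of 5 calves (each named gene, and the number of expressed genes, in TRT6_C and in TRT12_C), 23 had a calf set apart from the other 4 by Dixon's criterion at the 95% level, where chance sets apart about 1 in 20 groups.

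In TRT6_C, calf 4140 had the lowest ASXL1 (88.2 CPM, the others at 135 to 141) and NKTR (83.2 CPM, the others at 125 to 138), and the highest SRPRB (36.9 CPM) and PDIA5 (29.8 CPM). Calf 4151 had the highest CCL14 (17.0 CPM, the others at 8.59 to 10.8), PER1 (120.2 CPM, the others at 57.9 to 72.2) and DCN (231 CPM, the others at 141 to 154) and the lowest TMED4 (56.1 CPM). Without this calf the difference in CCL14 was -4.48 CPM. Calf 4154, the smallest library, had the highest CDH1 (397 CPM) and TRIB3 (7.73 CPM, the others at 1.10 to 2.97) and the lowest ACADVL (103 CPM) and ZNF576 (4.296 CPM). Calf 4144 had the highest LBP (26.4 CPM, the others at 10.1 to 14.6), which binds bacterial lipopolysaccharide, and the highest IFIT2 (7.12 CPM, the others at 1.19 to 2.58), an interferon-induced gene.

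In TRT12_C, calf 4159 was likewise the highest in both LBP (40.3 CPM, the others at 15.1 to 20.8) and IFIT2 (9.53 CPM, the others at 2.20 to 3.56), and in EDEM3 (169 CPM). Calf 4145 had the lowest COPB2 (117 CPM, the others at 138 to 144), SRPRA (65.5 CPM, the others at 83.8 to 89.5) and MARVELD2 (14.4 CPM). Calf 4147 had the lowest VWA2 (0.645 CPM, 1 read, the others at 2.20 to 2.67) and the highest PCNA (67.7 CPM), and calf 4158 the highest SEC23A (91.8 CPM).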

How the results depend on the processing

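Under 22 alternatives the 0 calls stood except under the exact test of edgeR, run on the 10 calves alone, which called 6 genes. They included SCD, TCEAL8 and CXHXorf57. In 2 of the others 1 calf stood far above the rest: ENSBTAG00000047663 was at 259 CPM in calf 4126, 1.47 to 24.5 CPM in the other TRT12_C calves and 0 to 0.678 CPM in TRT6_C, and ENSBTAG00000047046 was at 2250.1 CPM in calf 4134 and 2.20 to 53.5 CPM in the other calves. Genes at an unadjusted p under 0.05 ranged from 616 to 1574 with each calf left out. Lane as a covariate gave 1390 and no filter on low counts gave 1188. The difference in expressed genes per calf was -261 at 1 read or more and -375 to -696 with each calf left out, and passed an exact permutation p of 0.05 without TRT6_C calf 4154 (-679.8) and without TRT12_C calf 4158 (-695.6). Of 158 genes followed (those named by the rule or given as list members), 148 kept their direction under every alternative, among them all at an unadjusted p under 0.05, and 10 turned. With each calf left out the log2 fold change ran from -0.037 to 0.18 for ACTA2, -0.028 to 0.17 for KDR, -0.020 to 0.32 for CSF1R, -0.18 to 0.018 for IL10RB, -0.25 to 0.078 for NFKB2, -0.47 to 0.40 for DEFB1, -0.16 to 0.97 for IFIT2, -0.21 to 0.20 for PIGR, -0.17 to 0.010 for ERBB2 and -0.85 to 0.077 for TRIB3. With lane as a covariate in a fit of the compared groups only it was -0.021 for ACTA2, 0.043 for IL10RB and 0.063 for TRIB3. The median of all genes moved from -0.02 to -0.05 without TMM factors, where the share of higher genes among those at an unadjusted p under 0.05 went from 47.8% to 40.3%. That share passed 50% in the other direction with the 10 highest genes left out (55.3%, 536 higher and 433 lower), with lane as a covariate (53.2% over all calves, 50.3% in the compared groups only) and without calf 4154 (56.3%). Counts in other lists moved as well with each calf left out, from 0 to 6 for fibroblasts, 1 to 6 for iron and oxidative stress, 1 to 4 for goblet cells and 0 to 4 for the cell cycle. No paired analysis was possible because the calves are different animals and their numbers tie no TRT12_C calf to a TRT6_C calf. The cause of these changes was not tested.

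The depth of the deposited counts limits genes under about 2.58 CPM, 3 reads in the smallest library, such as RGS2 and VWA2. Dam parity is not in the deposited labels and rests on the study's sample list.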
